A study of Xenopus laevis with 4 samples.

Results

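The genes described here encode fibroblast growth factors (FGFs), their receptors and proteins that feed back on the pathway: the ligands fgf2, fgf8 and fgf10, the receptors fgfr1, fgfr2, fgfr3 and fgfr4, and the feedback genes spry1, spry2 and dusp6. They were found on the array by gene symbol, with the suffix that marks the gene copy removed. X. laevis is an allotetraploid, and L and S mark the copies of a gene on the longer and the shorter chromosome of each homeologous pair. Of the 10 genes, 9 were read by at least 1 probeset, a group of short probes for one transcript, and no probeset carried the symbol spry1. In all, 16 of the 15491 probesets tested belonged to these genes. The copies read were fgf2, fgf8.L, fgf10.S, fgfr1.L, fgfr2.L, fgfr3.S, both copies of fgfr4, both copies of spry2, and dusp6.L. Fgf8.L had 3 probesets, and fgf10.S, fgfr2.L and fgfr4.L had 2 each, and these are counted as probesets of one gene, not as separate genes. Whether each reads the transcript it is named for was not tested.

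FGFs are secreted proteins that bind receptor tyrosine kinases together with heparan sulphate and switch on the RAS to ERK kinase cascade. In the vertebrate limb bud, Fgf10 made by the mesenchyme signals to the overlying epithelium, and Fgf8 made by the distal epithelium signals back, a loop that keeps the bud growing. Sprouty proteins and the ERK phosphatase Dusp6 are switched on by the same pathway and damp it, and their transcripts are widely used to read its activity.

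RNA came from the distal hindlimb stump of X. laevis tadpoles 3 days after both hindlimb buds were cut at the future ankle at NF stage 52. Wild type (WT) siblings, which form a cone-shaped blastema, were compared with N1 transgenic siblings, which form a rounded pseudoblastema and do not regenerate, 2 pools of 20 limbs in each group and 1 Affymetrix array per pool. N1 tadpoles carry Noggin, a secreted inhibitor of BMP ligands, under the heat-inducible Hsp70 promoter, with GFP under a lens promoter, in a line descended from 1 founder with a single insertion. Both groups, WT included, received heat shocks of 30 minutes at 34°C about 3 hours before and 24 and 48 hours after amputation, so that heat shock and amputation are shared by all the samples and the transgene is the labelled difference. The Hsp70 promoter is not limited to one tissue, and each pool mixes epidermis with the cells beneath it.

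The median signal of an array lay between 157 and 175, and the median level of all probesets over the 4 arrays was a signal of 165. In the test across all probesets (limma on log2 signals, Benjamini-Hochberg adjustment), 2 probesets were called higher in WT and 17 higher in N1. The probeset of Noggin itself, nog.L, had 91.8 and 95.5 in WT and 75.6 and 52.2 in N1. The transgene holds only the coding sequence and the place of the probes is not known here, so that it does not check the labels. The labelled tissue was checked with lists of marker genes. The summed signal of 10 limb mesenchyme markers was 25875 and 26652 on the WT arrays and 29590 and 24075 on the N1 arrays, with 8 of the 10 at or above the median level and tbx4 and tbx5, transcription factors of the limb fields, below it. Most of this sum came from col1a2.L, col1a1.S and vim.L (8683, 7408 and 5396 on WT replicate 1), so the sum alone does not show limb identity. The summed signal of 14 epidermal markers was 9965 and 9205 in WT and 12745 and 15290 in N1. Of the 14, 13 had the higher mean log2 signal in N1, against 55.9% of all probesets. The sums of 14 skeletal muscle markers (1968 and 1942 in WT, 3207 and 2241 in N1), of 6 pigment cell markers (1682 and 1908, 4263 and 2426) and of 10 red cell markers (42170 and 34157, 83935 and 109368) were also above the WT values on both N1 arrays. Of the 14 muscle markers only 1, ckm.L, was at or above the median level. It gave the largest part of the muscle sum on each array (1342 and 1308 in WT, 1384 and 1671 in N1) and was highest on N1 replicate 2. Without ckm.L, the rest of the muscle sum was below both WT arrays on N1 replicate 2 and above both on N1 replicate 1. No marker gene stood at 0. The sum of 7 leucocyte markers was 1551 and 1472 in WT and 1738 and 1493 in N1, and overlapped between the groups. The part of these marker differences in the results below was not tested, and in pooled tissue fewer cells of a type and less RNA per cell cannot be told apart.

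The signals of all 16 probesets are shown by array. The level of a probeset depends on its probes as well as on the RNA, so levels are compared only between arrays and never between genes. Of the 16, 5 were at or above the median level, and these were above the median of the array on each of the 4 arrays: 1 of fgf8.L, that of fgfr1.L, both of fgfr2.L and that of spry2.S. The other 11 were below the array median on every array. They were all the probesets of fgf2, fgf10.S, fgfr3.S, fgfr4 and dusp6.L, the spry2.L probeset and the other two of fgf8.L, and 5 of the 11 were among the dimmest 25% of all probesets. The detection calls of the array software were not used here, so a low signal is not read as an absent transcript.

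**Figure D1:**
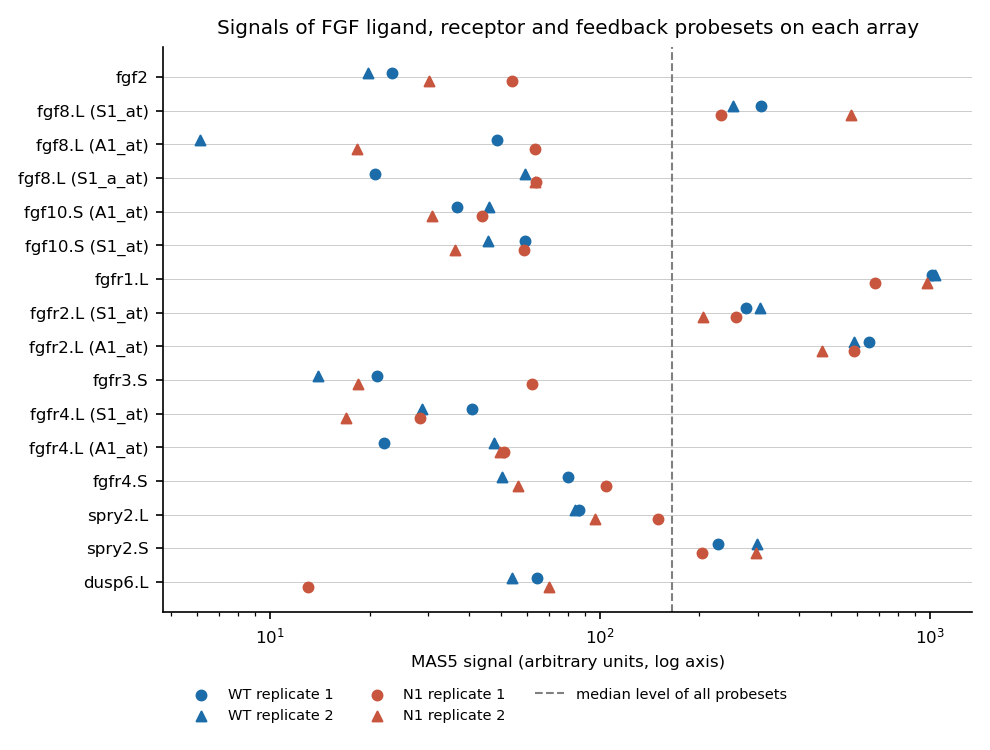
MAS5 signal (log axis) of each FGF ligand, receptor and feedback probeset on the 2 WT arrays (blue) and the 2 N1 arrays (red). Circles are replicate 1, triangles replicate 2, and the dashed line marks a signal of 165, the median over all probesets; 5 probesets lie to its right on all 4 arrays and 11 to its left.

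Among the ligands, no difference between WT and N1 passed the test, and 4 of 6 probesets had the higher mean log2 signal in N1, against 55.9% of all probesets. The 4 were the fgf2 probeset and the 3 of fgf8.L. Of the 6, 5 were below the median level, where 62.3% of all probesets had the higher mean in N1. Fgf2, a ligand made by many tissues including epidermis, read 23.4 and 19.8 on the WT arrays, against 54.0 and 30.3 on the N1 arrays. Both N1 signals were above both WT signals, at a level in the dimmest 25% of the array. The log2 difference, WT minus N1, was -0.91 with a standard error (SE) of 0.63, and the adjusted p was 0.640 from limma.

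Fgf8.L, the ligand of the apical epithelium, was read above the median by its brightest probeset (ending in S1_at), with 308 and 253 on the WT arrays and 233 and 578 on the N1 arrays. The N1 arrays lay on either side of both WT arrays. Their own ratio was 2.48, and the WT signals differed 1.21-fold. The log2 difference, WT minus N1, was -0.39 with an SE of 0.41 (adjusted p = 0.767 from limma), and its direction depended on which N1 array was used: without N1 replicate 1 it was -1.05 and without N1 replicate 2 it was 0.26. The summed epidermal markers were 12745 on N1 replicate 1 and 15290 on N1 replicate 2, against 9965 and 9205 in WT. On N1 replicate 1 that sum was above both WT sums, while this fgf8.L probeset was below both WT signals. A link between fgf8.L and the epidermal markers was not tested.

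The other two fgf8.L probesets gave low and scattered signals. That ending in A1_at had 48.6 and 6.12 in WT and 63.6 and 18.3 in N1, and the WT arrays alone differed 7.93-fold. That ending in S1_a_at had 20.8 and 59.1 in WT and 63.7 and 63.3 in N1, so that the N1 arrays were nearly equal and both above the WT arrays. Neither followed the high signal of N1 replicate 2 seen with the brightest probeset. The log2 differences were -0.99 with an SE of 1.06 and -0.86 with an SE of 0.62 (adjusted p = 0.777 and 0.653 from limma).

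Fgf10, the mesenchymal partner of Fgf8, served the study as the reference transcript of its quantitative PCR. The study does not name the gene copy, and which copy its primers amplify was not tested here. The primers are shown because every fold change of that assay was taken relative to the product they amplify.
FGF-10 5′ primer: cagtgaaagccattaacagca
FGF-10 3′ primer: ggtgttgtagccattctcctct
On the arrays, the fgf10.S probeset ending in A1_at gave 36.9 and 46.2 in WT and 43.8 and 30.9 in N1. That ending in S1_at gave 59.1 and 45.7 in WT and 58.6 and 36.2 in N1. For both probesets the groups overlapped and the N1 arrays were farther apart than the WT arrays. The 95% intervals of the log2 difference of WT minus N1 were -1.10 to 1.43 and -1.03 to 1.38. A 2-fold difference in either direction lies inside them, so that the arrays do not show that fgf10.S was equal in the groups.

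The receptors read above the median level had higher means in WT, without passing the test. Of all probesets at or above that level, 50.5% had the higher mean log2 signal in WT. Fgfr1.L, the receptor of limb mesenchyme, had 1011 and 1037 on the WT arrays and 679.9 and 982 on the N1 arrays. The WT signals were close to each other and both above the N1 signals, of which that of replicate 2 was near WT. The means were 1024 ± 18.8 (SD, n = 2) in WT and 831 ± 214 in N1, a log2 difference of 0.33 with an SE of 0.23 (adjusted p = 0.648 from limma). It was 0.59 without N1 replicate 2 and 0.060 without N1 replicate 1.

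Fgfr2.L, whose epithelial form binds Fgf10, was read above the median by both of its probesets. The one ending in S1_at had 277 and 305 in WT and 257 and 205 in N1, and both WT signals were above both N1 signals. The one ending in A1_at had 651 and 587 in WT and 588 and 469 in N1, and there the lower WT signal was just under the higher N1 signal. The means were 1.26-fold and 1.17-fold higher in WT. The log2 differences were 0.34 with an SE of 0.27 and 0.24 with an SE of 0.23 (adjusted p = 0.692 and 0.744 from limma). With each array left out in turn they were of the same sign (between 0.17 and 0.51, and between 0.073 and 0.40). So were those of 9 of the 16 probesets, these included, some toward WT and others toward N1. A probeset that matched 2 receptor symbols, xfgfra2 and fgfr1-a, fell outside the rule for members and was looked up after the values were seen. It had 135 and 127 in WT and 81.7 and 124 in N1, with the lower signal on N1 replicate 1, as for fgfr1.L.

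Fgfr3.S and fgfr4, receptors known from cartilage and from muscle precursors respectively, were below the median level on all arrays. Fgfr3.S had 21.0 and 13.95 in WT and 62.4 and 18.5 in N1. Its higher N1 mean rested on the array of N1 replicate 1. Without that array the log2 difference went from -0.99 to -0.11. The summed markers of skeletal muscle (3207), pigment cells (4263), limb mesenchyme (29590) and leucocytes (1738) were highest on N1 replicate 1 too. Those of epidermis (15290) and red cells (109368) were highest on N1 replicate 2, and no link to fgfr3.S was tested.

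The probesets of fgfr4.L went in opposite directions. That ending in S1_at had 41.0 and 28.8 in WT and 28.4 and 17.0 in N1, with both WT signals above both N1 signals, and that ending in A1_at had 22.2 and 47.7 in WT and 51.0 and 49.8 in N1, with both N1 signals above. Fgfr4.S had 79.98 and 50.6 in WT and 104 and 56.5 in N1, and the groups overlapped. The log2 differences of WT minus N1 were 0.65, -0.63 and -0.27 with SEs of 0.65, 0.59 and 0.50, so that each was about as large as its error or smaller (adjusted p between 0.738 and 0.884 from limma).

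No feedback probeset passed the test. Of the 3 probesets 2 had the higher mean log2 signal in WT and 1 in N1, against 44.1% and 55.9% of all probesets. Spry2, an inhibitor of receptor tyrosine kinase signalling, was read in both copies. Spry2.L had 86.4 and 83.6 on the WT arrays and 150.2 and 96.2 on the N1 arrays, with both N1 signals above both WT signals. Spry2.S, at a level above the median, had 227 and 298 in WT and 204 and 298 in N1, and the groups covered nearly the same range. The log2 differences of WT minus N1 were -0.50 with an SE of 0.40 and 0.079 with an SE of 0.31 (adjusted p = 0.690 and 0.949 from limma). The difference between the copies was not tested. A probeset that matches both copies fell outside the rule and was low, at 17.4 and 10.8 in WT against 13.95 and 48.2 in N1.

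Dusp6.L, the ERK phosphatase, had 64.2 and 53.9 on the WT arrays and 13.0 and 69.8 on the N1 arrays. One N1 array was far below both WT arrays and the other was above them, a 5.38-fold gap between the N1 replicates against 1.19-fold between the WT replicates. The log2 difference, WT minus N1, was 0.97 with an SE of 0.79 (adjusted p = 0.696 from limma). It was 2.18 without N1 replicate 2 and -0.25 without N1 replicate 1.

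**Figure D2:**
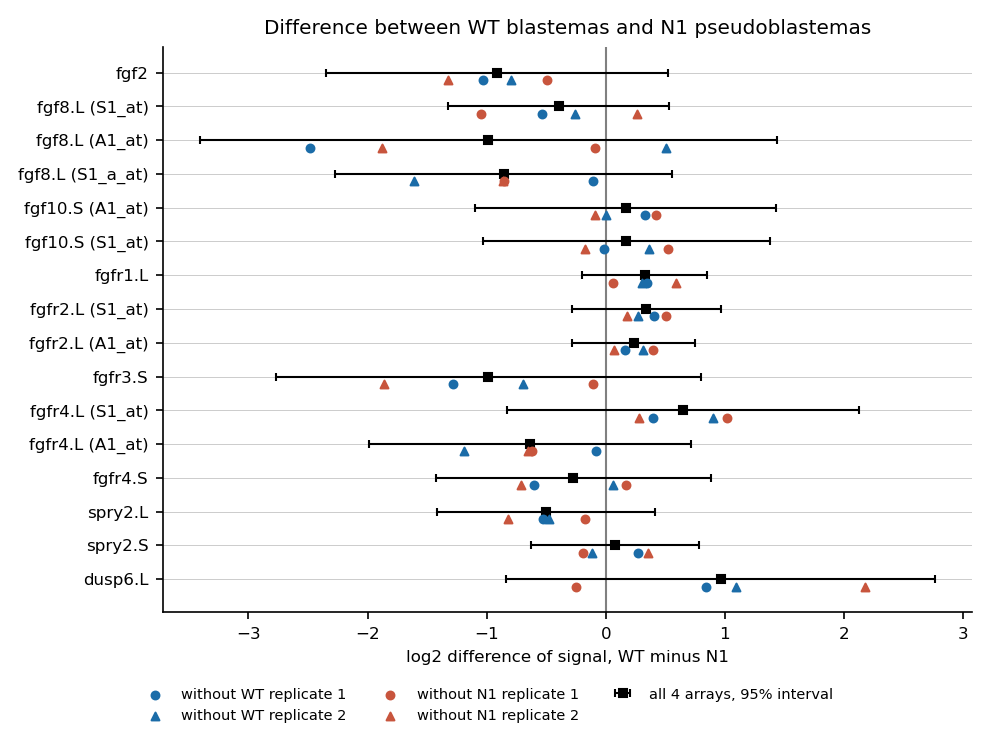
Log2 difference of signal, WT minus N1, of each probeset: black squares with bars give the value from all 4 arrays with its 95% interval from limma, and coloured points the value with 1 array left out. All 16 intervals include 0, and leaving out an array moved fgf8.L (S1_at) between -1.05 and 0.26 and dusp6.L between -0.25 and 2.18.

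Taking the 16 probesets together, none was called at an adjusted p under 0.05, where 0.123% of all probesets tested were called (0.0129% higher in WT and 0.11% higher in N1, from limma). None had an unadjusted p under 0.05 either, where 4.29% of all probesets did so with a higher signal in WT and 6.82% with a higher signal in N1. With each array centred on its median, which moves every log2 difference by 0.11 toward WT, the unadjusted calls over all probesets were 1028 higher in WT and 762 higher in N1, in place of 664 and 1057, and those of the 16 remained 0. The adjusted p values of the 16 ran from 0.640 to 0.949. When an array is dropped, its group keeps 1 sample, whose spread is taken from the other group, and the calls over the whole array change as well. With N1 replicate 2 left out, dusp6.L (unadjusted p = 0.0127) and fgfr1.L (0.0169) reached the unadjusted threshold toward WT and fgfr3.S (0.0449) toward N1 in limma, where all probesets gave 1263 and 1475 calls. With N1 replicate 1 left out, fgf8.L ending in S1_at (0.00569) did so toward N1, where all probesets gave 969 calls. With WT replicate 1 left out, fgf8.L ending in A1_at (0.0458) did so toward N1, where all probesets gave 942. Both WT arrays were above both N1 arrays in 3 probesets (fgfr1.L, fgfr2.L ending in S1_at and fgfr4.L ending in S1_at), against 17.9% of all probesets. The reverse was so in 4 (fgf2, fgf8.L ending in S1_a_at, fgfr4.L ending in A1_at and spry2.L), against 24.2%. The groups did not overlap in 7 of the 16 in all, against 42.2% of all probesets, so that the members' share was near that of the whole array. The means differed over 1.5-fold toward WT in 1 probeset and toward N1 in 3, against 9.1% and 19% of all probesets. The median log2 difference of WT minus N1 was -0.096 over the 16 and -0.073 over all probesets, and both turned positive with quantile normalisation (0.026 and 0.021) or median centring (0.013 and 0.036).

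The size of difference that these arrays leave possible depended on the level. For the 5 brighter probesets, those not below the median level, the 95% interval reached 0.51 to 0.93 on the log2 scale to either side of the estimate, and 4 of the 5 intervals lay within a 2-fold difference in both directions: those of fgfr1.L, both fgfr2.L probesets and spry2.S. The exception was fgf8.L, whose interval of -1.32 to 0.53 includes a 2-fold higher level in N1. These intervals are for the signals as deposited. The upper limit of fgfr2.L ending in S1_at, 0.97, was close to a 2-fold difference. Its log2 difference was 0.34 as deposited and 0.45 with median centring, and its interval under that setting was not examined. For the 11 probesets below the median level the interval reached 0.92 to 2.42 to either side, and none lay within a 2-fold difference. A missing call for these 11 does not show that the levels were alike.

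The N1 arrays differed from each other more than the WT arrays did in 13 of the 16 probesets, against 57.9% of all probesets, and in 5 of the 5 at or above the median level, against 61.7% of all probesets at that level. Only fgf8.L ending in A1_at, fgf8.L ending in S1_a_at and fgfr4.L ending in A1_at had the wider gap in WT. The array of N1 replicate 2 was the higher one for fgf8.L (S1_at), fgfr1.L, spry2.S and dusp6.L, by log2 differences of 1.31, 0.53, 0.54 and 2.43 over N1 replicate 1. In the other 12, N1 replicate 1 was higher. Over all probesets, N1 replicate 2 was the higher in 42.9%. Over all probesets above the median level, the median absolute log2 difference between replicates was 0.25 in WT and 0.31 in N1 for the lower part of this range, up to the 75th percentile, and 0.15 and 0.29 for the part above it.

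**Figure D3:**
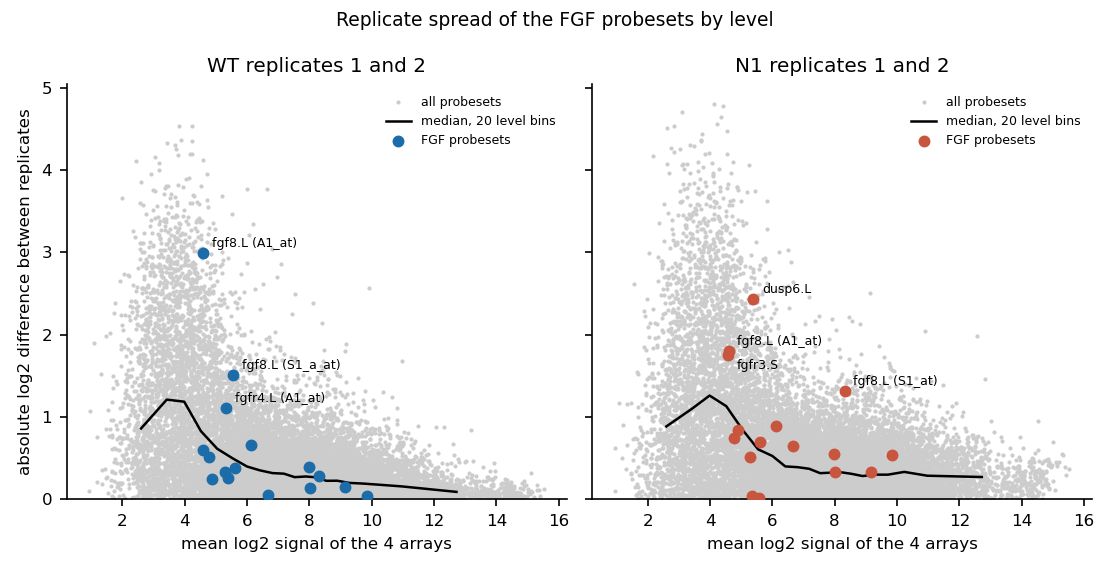
Absolute log2 difference between the 2 replicates of a group against the mean log2 signal, for WT (left) and N1 (right): grey points are all probesets, the black line their median in 20 level bins, coloured points the FGF probesets, with names where the difference is over 1. In N1 the brightest fgf8.L probeset (1.31) and dusp6.L (2.43) stand well above the line for their level.

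The other genes of the pathway were taken from lists of ligands, co-receptors and binding proteins, heparan sulphate enzymes and proteoglycans, intracellular adaptors and kinases, further feedback inhibitors, transcription factors of the FGF and ERK response, and limb signals that act beside FGF. These lists held 80 measured genes with 124 probesets. None of the 124 passed an adjusted p of 0.05, while 2 were higher in WT and 7 higher in N1 at an unadjusted p under 0.05 (limma), which is 1.61% and 5.65% against 4.29% and 6.82% of all probesets. With N1 replicate 2 left out, 7 were higher in WT and 7 in N1, while the calls over all probesets went from 664 to 1263 toward WT and from 1057 to 1475 toward N1. The median log2 difference of WT minus N1 was -0.10, near that of all probesets.

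Of the other ligands, 4 genes were measured with 5 probesets and 4 of these probesets lay in the dimmest 25%. Fgf9.S, a ligand of the subfamily made by epithelia, was the exception. It had 441 and 443 on the WT arrays and 286 and 567 on the N1 arrays, so that as for fgf8.L the N1 arrays lay on either side of WT. Its log2 difference was 0.13 with an SE of 0.33 (adjusted p = 0.916 from limma). Of 12 genes on the co-receptor and binding list, 2 were measured, and neither is a co-receptor. They were fibp.L, a protein that binds acidic FGF inside the cell (626 and 540.4 in WT, 533 and 482 in N1), and fgfr1op2.S (203 and 168 in WT, 181 and 209.8 in N1). For fibp.L both WT signals were above both N1 signals, as in 24.1% of all probesets at or above the median level. For fgfr1op2.S the groups overlapped.

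Heparan sulphate carries FGFs to their receptors, and of 28 probesets for 15 genes of its synthesis and proteoglycans, 1 was higher in WT and 2 were higher in N1 by the unadjusted p. These shares, 3.57% and 7.14%, were near the 4.29% and 6.82% of all probesets. The WT one was a probeset of sulf2.L, an extracellular enzyme that removes sulphate groups from heparan sulphate chains. It had 610.4 and 742 in WT and 278 and 251 in N1, a log2 difference of 1.35 with an SE of 0.24 (adjusted p = 0.0901 from limma), while the second sulf2.L probeset had 821 and 945 in WT and 909 and 740.3 in N1. The 2 higher in N1 belonged to syndecan 4, a cell surface proteoglycan of epithelia and other cells. Sdc4.S had 425 and 724 in WT and 960.01 and 1562 in N1, and sdc4.L (ending in A1_s_at) had 2785 and 2709 in WT and 3450.0 and 4399 in N1. Both N1 signals were above both WT signals in each, with adjusted p of 0.235 and 0.372 from limma. The 2 were named for their low unadjusted p, and 24.2% of all probesets had both N1 arrays above both WT arrays. Of 2 further sdc4.L probesets, 1 overlapped between the groups (485 and 337 in WT, 402 and 799 in N1) and the dimmer one was higher on both WT arrays (79.8 and 89.9 in WT, 59.6 and 59.9 in N1).

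Of 23 probesets for 16 genes of the adaptors and the RAS to ERK kinases, none had an unadjusted p under 0.05 (limma). Among those not below the median level, the lowest p belonged to ptpn11.S, a phosphatase that relays receptor signals to RAS, and to frs2.L, the docking protein of FGF receptors. Ptpn11.S had 307 and 295 in WT and 181 and 259.7 in N1, and frs2.L (ending in S2_at) had 734 and 755 in WT and 674 and 547 in N1. In both, the WT arrays were above the N1 arrays, by log2 differences of 0.47 with an SE of 0.29 and 0.29 with an SE of 0.21. A dimmer frs2.L probeset had 53.5 and 28.1 in WT and 49.6 and 36.0 in N1, and overlapped between the groups. The further feedback inhibitors were measured in 3 genes with 7 probesets, none of them at an unadjusted p under 0.05 (limma). Rnd1.S, a small GTPase, had 403 and 357 in WT and 322 and 176 in N1, and the phosphatase dusp1.L had 657 and 526 in WT and 631 and 868 in N1.

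The transcription factors of the response were measured in 17 genes with 25 probesets, of which 2 were higher in N1 at an unadjusted p under 0.05 (limma) and none higher in WT. The share toward N1, 8%, was near the 6.82% of all probesets, and 4.29% of all probesets were higher in WT. The 2 were junb.L, with 388 and 368 in WT and 506 and 659 in N1, and jun.L, which lies below the median level, with 136 and 103 in WT and 234 and 218 in N1. Both are immediate early genes that many stimuli switch on, and their adjusted p was 0.397 and 0.341 from limma. Ier2.S, another immediate early gene, had 379 and 387 in WT and 634 and 484 in N1. Etv4.L, an ETS factor that is a target of limb FGF signals, had 1193 and 1452 in WT and 857 and 1449 in N1. Its groups overlapped, and the log2 difference was 0.24 (adjusted p = 0.788 from limma).

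Among 34 probesets for 23 genes of the limb signals beside FGF, 1 was higher in WT and 3 were higher in N1 by the unadjusted p. That is 2.94% and 8.82%, against 4.29% and 6.82% of all probesets. The WT one was grem1.L, the BMP antagonist Gremlin, which in amniote limb buds keeps the FGF loop running. It had 1034 and 819 in WT and 351 and 304 in N1, a log2 difference of 1.495 with an SE of 0.23 (adjusted p = 0.0616 from limma). The study had picked this gene from these arrays, so that its direction here is not independent evidence. Shh.L, the Sonic hedgehog ligand of the posterior limb bud, had 230.2 and 286 in WT and 449 and 373 in N1 (log2 difference -0.67 with an SE of 0.26). The other two were the copies of bmp2, a BMP ligand, both below the median level: bmp2.S had 90.9 and 90.01 in WT and 151 and 175 in N1, and bmp2.L had 89.4 and 42.6 in WT and 129 and 253 in N1. Both N1 signals were above both WT signals in shh.L and in both copies of bmp2, as in 24.2% of all probesets. All of these were taken by a low unadjusted p, which favours groups that do not overlap, so that this adds no evidence. Their adjusted p lay between 0.308 and 0.422 from limma. Jun.L, etv4.L and the bmp2 probesets were named after their values were seen.

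**Figure D4:**
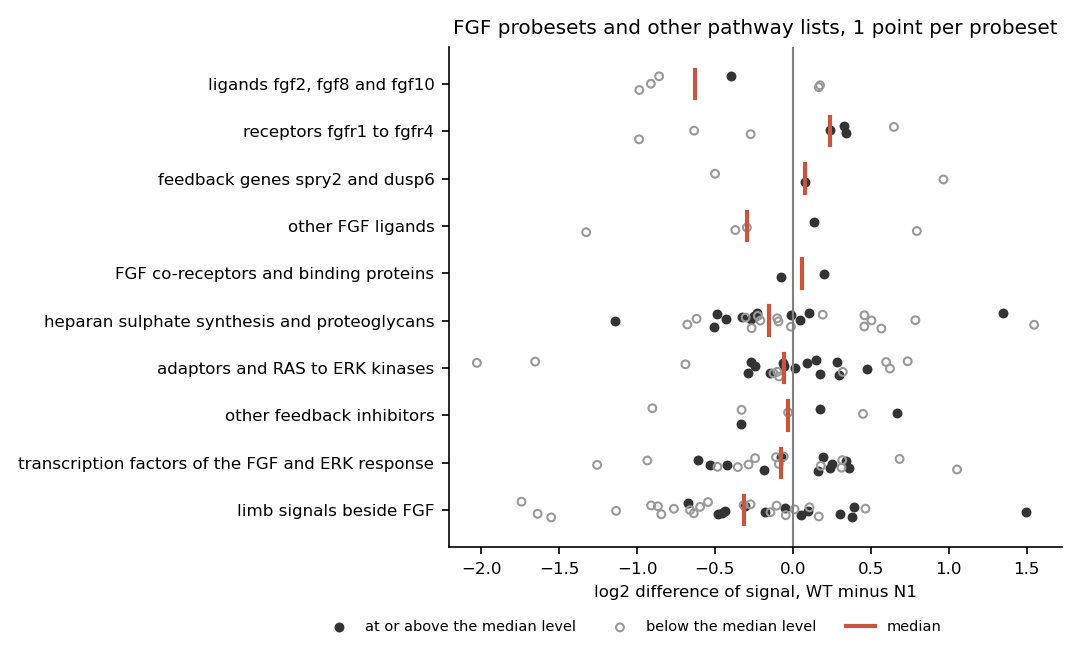
Log2 difference of signal, WT minus N1, with 1 point per probeset, for the FGF ligands, receptors and feedback genes (top) and the other pathway lists. Filled points are at or above the median level, open points below it, and the red bar is the median of the row; the points farthest from 0 are mostly open, and the filled ones over 1 in size are grem1.L (1.495), sulf2.L (1.35) and sdc4.S (-1.14).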

How the data were processed

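The authors hybridised each of the 4 RNA pools to an Affymetrix X. laevis array after 2-cycle labelling and made the deposited values with the MAS5 algorithm in GCOS (versions not given in the sources used here). The deposited signal intensity is on a linear scale, scaled between arrays by them, and was not renormalised here. Of 15611 probesets, 120 controls were left out. A platform table gave 1 symbol for 9304 probesets, several for 195 and none for 5992, and 9227 of the first had their gene in RefSeq (assembly Xenopus_laevis_v10.1). No genome coordinate, promoter or protein was used.

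The comparison, WT minus N1, was made on log2 signals with limma 3.58.1 under R 4.3.3, with a trended prior variance, adjusted by Benjamini-Hochberg over 15491 probesets, with a threshold of 0.05. The script was tested on simulated data. SDs are over 2 arrays, and the number of arrays sets the precision. With 2 arrays a side, the smallest two-sided p of an exact permutation test is 0.333. The p-values set each difference against the spread between pools of siblings, drawn toward a prior variance taken from probesets of similar level.

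The members and lists were chosen with earlier results of these data known. Named pathway genes were, per list and at or above the median level, those at an unadjusted p under 0.05, at most 4, and otherwise the smallest p until 2 were named. Marker sums take the brightest probeset of each gene. Alternatives were no variance trend, filters at the median or 25th percentile, quantile normalisation, median centring, a constant of 16 or 64 added to the signals, a block for the replicate number, omission of each array, and, chosen after seeing the data, the 2 probesets of several symbols added.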

Additional observations from a re-analysis of the deposited data

How the results depend on the processing

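None of the 16 FGF probesets passed the adjusted threshold in limma under any alternative, leave-one-out included, and the smallest adjusted p over them was 0.159. Of 176 member values under the alternatives, 166 kept their direction and 10 turned it, each of these with an array left out; 9 of 16 probesets never turned. The ranges over the arrays left out were -1.05 to 0.26 for fgf8.L (S1_at), -2.48 to 0.51 for fgf8.L (A1_at), -0.087 to 0.42 and -0.17 to 0.52 for fgf10.S, -0.71 to 0.17 for fgfr4.S, -0.19 to 0.35 for spry2.S and -0.25 to 2.18 for dusp6.L. Unadjusted calls of the 16 ranged from 0 to 2 toward WT and 0 to 1 toward N1, and were 0 and 0 with the probesets of several symbols added. The median of the 16 was 0.24 with the filter at the median, 0.079 at the 25th percentile, 0.026 with quantile normalisation, 0.013 with median centring and -0.13 to 0.032 with an array left out. The filters change the median because they drop dim members.

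Unadjusted calls among the other pathway probesets ranged from 2 to 7 (WT) and from 4 to 9 (N1) with an array left out, and those toward N1 were 4 with the filter at the median and 3 with median centring. Over all probesets, adjusted calls toward WT and N1 were 0 and 0 without the variance trend (unadjusted 415 and 956), 4 and 32 with the filter at the median (647 unadjusted toward N1), 10 and 58 at the 25th percentile, 2 and 8 with median centring (unadjusted 1028 and 762), 2 and 4 with 64 added, and 0 to 178 and 0 to 156 with an array left out (unadjusted 217 to 1263 and 593 to 1475). Without N1 replicate 2 alone they were 178 and 156, and the cause was not tested. With the replicate block they were 57 and 143, and 0 for the 16. Same-numbered samples did not deviate together (r = 0.028), so that the numbers were not taken as pairs.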

Other observations

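The array of N1 replicate 2 was above that of N1 replicate 1 in several genes of the FGF and ERK response and of limb signalling besides the members. These were chosen after their values were seen. Egr1.L, an immediate early gene that ERK switches on, had 349 and 259 on the WT arrays and 259 and 629 on the N1 arrays. Gli3.L, a transcription factor of Hedgehog signalling, had 399 and 401 in WT and 281 and 530 in N1. The N1 signals of gli3.L lay on either side of the WT signals, as did those of fgf9.S and the brightest fgf8.L probeset. The share of all probesets with this order was not counted, so it is not read as a trait of these genes. For egr1.L, N1 replicate 1 was level with the lower WT signal and N1 replicate 2 was above both. The ratios of N1 replicate 2 over N1 replicate 1 were 2.43 for egr1.L, 1.98 for fgf9.S, 1.88 for gli3.L and 1.69 for etv4.L. Other genes of the pathway lists went the other way: N1 replicate 1 and replicate 2 were 322 and 176 for rnd1.S, 305 and 180.2 for meis2.L, and 634 and 484 for ier2.S. Others were nearly equal on the N1 arrays: bmp4.S had 242 and 249, msx1.L 382 and 397, and mycn.S 870.2 and 878. Over the 55 other pathway probesets at or above the median level, N1 replicate 2 was the higher in 61.8%, against 48.8% of all probesets at that level.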
